A study of Oreochromis niloticus with 3 samples.

Results

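The genes described here are 5 stress and hypoxia response genes of Nile tilapia (Oreochromis niloticus), out of 29605 genes in the count table. They are ddit4 (LOC100696517), zmat3 (LOC100706078), gadd45ga (LOC100707083), egln3 (LOC100702648) and epoa (LOC100707671). They were picked by name because the study placed them in the p53, PI3K-Akt and HIF-1 pathways, among genes that were higher at 16 psu than at 8 psu. Their levels in these libraries therefore chose them, and the values below are a description. Where the genes are said to be past the criteria that are applied to all genes, which include a test on reads, this states where they lie under those criteria and supports nothing.

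RNA-Seq was run on the hepatopancreas of healthy juvenile fish kept at 0 psu (freshwater), 8 psu or 16 psu, to ask how the liver transcriptome differs between freshwater and brackish water. Salinity was raised by 4 psu per day, the fish were held for 5 weeks by the labels (the study's methods give a longer time), and food was withheld before sampling. The fish lived in 3 tanks per salinity, and RNA of 8 fish per salinity was mixed in equal amounts into 1 library. A salinity is thus represented by a single library, none of the differences has a replicate check, and the differences between fish, tanks or libraries cannot be told apart from salinity. The labels name the cells as histiocytes of the hepatopancreas, although whole tissue was extracted. Markers of hepatocytes summed to between 76958 and 82341 CPM (counts scaled to a library of 1000000 counts) and those of macrophages to between 922 and 1093 CPM, while the islet genes ins and insb had no counts.

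Ddit4, zmat3 and the GADD45 genes are known from mammals as part of the response to damage and energy stress, where p53, glucocorticoids or low oxygen can raise their transcription. Egln3 and erythropoietin belong to oxygen sensing. With oxygen present, prolyl hydroxylases of the EGLN family mark the hypoxia-inducible factors (HIF) for removal by the von Hippel-Lindau protein, and when oxygen falls HIF turns on its targets, among them erythropoietin and, in mammals, egln3 itself. The fish liver carries out gluconeogenesis, plasma protein secretion and detoxification, and in bony fish is mixed with exocrine pancreas.

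The counts summed to 14627514, 13628578 and 16112951 at 0, 8 and 16 psu. Of the 29605 genes, 16573 reached 10 counts in 1 library or more, including all 5 described here. Levels are given as CPM with library sizes scaled by the trimmed mean of M-values (TMM), on which 1 count was worth between 0.0596 and 0.0729 CPM and the level allowed by a count of 0 (3 counts) was between 0.179 and 0.219 CPM. Log2 fold changes were taken on CPM + 0.5, which understates the change of low genes. Intervals are 95% intervals of the counts (exact Poisson for a level, exact Clopper-Pearson for a fold change, without the added 0.5), and they cover counting error only. A gene was called different between 2 libraries when it passed a fold limit of 2 in either direction together with an adjusted p below 0.05 (exact binomial test of its reads, two-sided, Benjamini-Hochberg over all genes tested). That test compares libraries, not salinities.

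All 5 genes had their highest level in the 16 psu library and their lowest value in the 8 psu library, although for zmat3, egln3 and epoa the intervals at 0 and 8 psu overlapped. Between 8 and 16 psu all 5 were past the criteria in the higher direction, a count that the choice of the genes fixed, where 3.54% of the genes tested were called higher and 2.14% lower. Between 0 and 16 psu 4 of the 5 were called higher (ddit4, zmat3, egln3 and epoa), beside 5.79% of all genes called higher and 5.27% called lower. Between 0 and 8 psu none of the 5 was called higher and 1, ddit4, was called lower, beside 4.42% of all genes called higher and 5.41% called lower. The study had put the 5 genes in its stable-then-change class. The choice of the genes therefore also bore on their counts and medians in these other sets. The median log2 fold change of the 5 genes was -0.42 between 0 and 8 psu, 1.28 between 0 and 16 psu and 1.78 between 8 and 16 psu, where the median of all genes tested was 0.00, 0.01 and 0.00 in the same order of sets. The 3 sets share libraries, so a gene's fold changes in them are not separate observations.

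**Figure D1:**
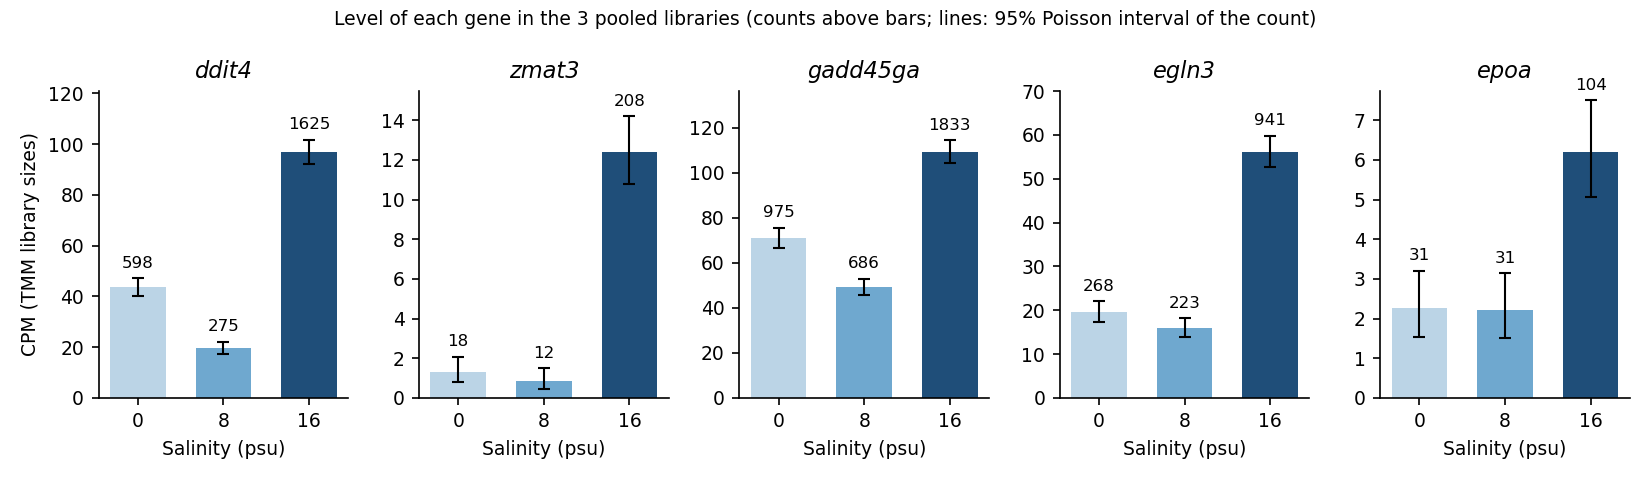
Level of ddit4, zmat3, gadd45ga, egln3 and epoa in CPM (vertical axes, each from 0 and with its own scale) against salinity in psu, 1 pooled library per bar. Counts stand above the bars and the lines are 95% Poisson intervals of the count. In each panel the 16 psu bar is the highest, from 6.20 CPM for epoa to 109.3 CPM for gadd45ga, and its interval lies above those of 0 and 8 psu.

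Ddit4, zmat3 and gadd45ga are the genes of growth arrest and damage. Ddit4 encodes REDD1, an inhibitor of the growth kinase complex mTORC1 that is known in mammals to be induced by hypoxia, DNA damage and glucocorticoids. It had 598, 275 and 1625 counts at 0, 8 and 16 psu, which were 43.6 CPM (interval 40.2 to 47.2), 19.7 CPM (17.4 to 22.2) and 96.9 CPM (92.3 to 101.7). The 8 psu library was the lowest and the 16 psu library the highest, and the 3 intervals did not overlap. The log2 fold change was -1.13 (interval -1.36 to -0.94) between 0 and 8 psu, 1.14 (1.02 to 1.29) between 0 and 16 psu and 2.27 (2.11 to 2.49) between 8 and 16 psu. Of the 5 genes, ddit4 was the only one past the criteria in all 3 sets and the only one past them in both directions. It stood 51st from the highest fold change between 8 and 16 psu among the 8291 genes with at least 100 counts in 1 library.

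Zmat3 encodes a zinc finger protein that binds RNA and is a direct p53 target in mammals. Its counts were 18, 12 and 208 at 0, 8 and 16 psu, or 1.31 CPM (interval 0.778 to 2.07), 0.859 CPM (0.444 to 1.5) and 12.4 CPM (10.8 to 14.2). The 0 and 8 psu intervals overlapped, and both lay well below that of 16 psu. Of the sum of its 3 levels, 85.1% was in the 16 psu library, the largest such share of the 5 genes. The log2 fold change was 3.25 between 8 and 16 psu and 2.83 between 0 and 16 psu, and without the added 0.5 the level was 14.4-fold higher at 16 psu than at 8 psu (interval 8.09 to 28.4). Between 0 and 8 psu the log2 fold change was -0.42 with an interval from -1.80 to 0.52, so that no difference was detectable at this depth. Zmat3 was the 22nd highest of the 8291 genes between 8 and 16 psu, but its precision there was limited by the 12 counts at 8 psu.

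Gadd45ga encodes a small nuclear protein of the growth arrest and DNA damage family, whose mammalian members bind the stress pathway kinase MAP3K4, the cyclin-dependent kinase inhibitor p21 and PCNA. Its counts were 975, 686 and 1833, or 71.1 CPM (interval 66.7 to 75.7), 49.1 CPM (45.5 to 52.9) and 109.3 CPM (104.4 to 114.4). The 3 intervals did not overlap, and the order of the libraries was that of ddit4. The log2 fold change was -0.53 (-0.68 to -0.39) between 0 and 8 psu, 0.62 (0.51 to 0.73) between 0 and 16 psu and 1.15 (1.03 to 1.28) between 8 and 16 psu. It was the gene nearest to the fold limit between 8 and 16 psu, and under that limit in both other sets. Of the sum of its levels, 47.6% was in the 16 psu library, the smallest share of the 5.

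By point value the oxygen-sensing genes differed least over the first step of salinity, although the wide interval of zmat3 there (-1.80 to 0.52) covered their values. Egln3 encodes the prolyl hydroxylase PHD3. It had 268, 223 and 941 counts in the 3 libraries, or 19.5 CPM (17.3 to 22.0), 16.0 CPM (13.9 to 18.2) and 56.1 CPM (52.6 to 59.8). The 0 and 8 psu intervals overlapped and the 16 psu level stood above both. The log2 fold change was -0.28 (-0.55 to -0.03) between 0 and 8 psu, 1.5 (1.32 to 1.72) between 0 and 16 psu and 1.78 (1.60 to 2.03) between 8 and 16 psu, the last being 70th highest of the 8291 genes.

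Epoa encodes erythropoietin, the hormone that drives red cell production, which in mammals comes from the fetal liver and the adult kidney. It had 31 counts in each of the 0 and 8 psu libraries and 104 in the 16 psu library, or 2.26 CPM (1.54 to 3.21), 2.22 CPM (1.51 to 3.15) and 6.20 CPM (5.07 to 7.52). The levels at 0 and 8 psu were alike within counting error (log2 fold change -0.02, interval -0.79 to 0.74), and its sign there turned with the scaling. The log2 fold change was 1.28 (0.87 to 2.08) between 0 and 16 psu and 1.30 (0.89 to 2.11) between 8 and 16 psu. Both intervals reached below the 2-fold limit, so the depth did not place epoa firmly on one side of it.

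**Figure D2:**
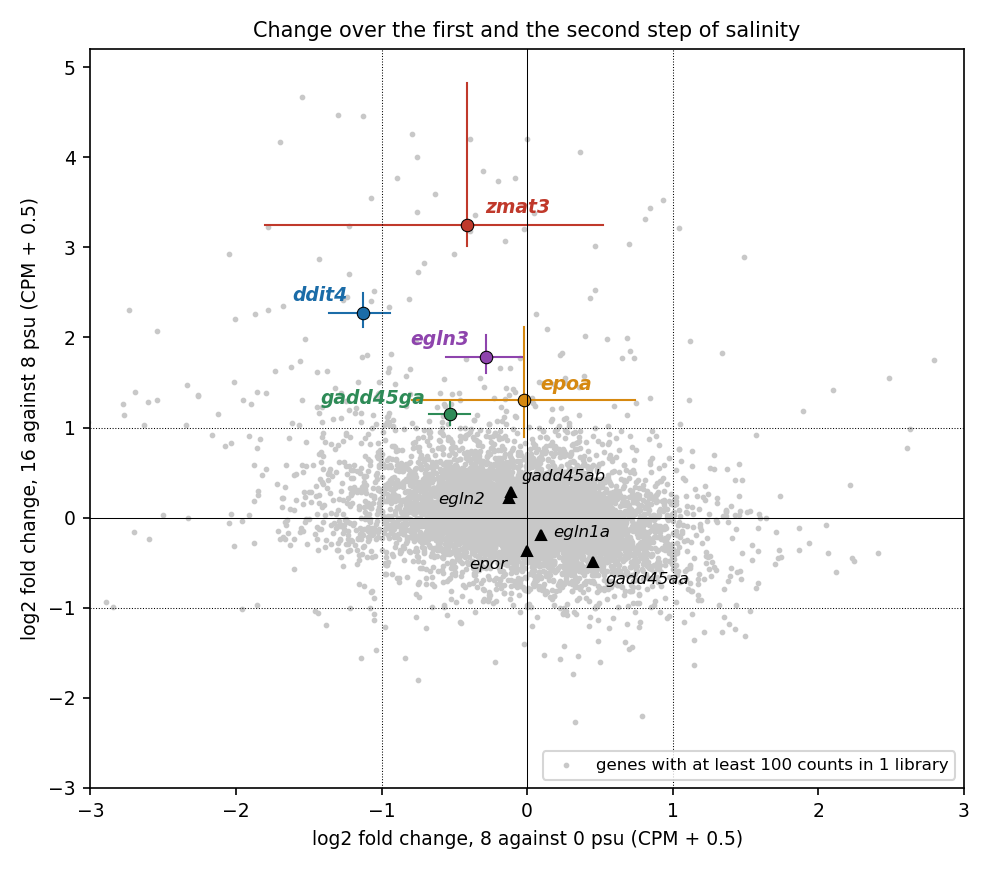
Log2 fold change on CPM + 0.5 over the first step (8 against 0 psu, horizontal axis) and the second step (16 against 8 psu, vertical axis). Grey points are the 8291 genes with at least 100 counts in 1 library (26 lie outside the axes), coloured circles the 5 genes with 95% counting intervals, and triangles 4 of their relatives (egln1a, egln2, gadd45aa and gadd45ab) and the receptor epor. The 8 psu library enters both axes with opposite sign. The 5 circles sit at or left of 0 and above the dotted 2-fold line, and these triangles between -0.49 and 0.29 on the vertical axis.

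The 5 genes differed in how much of their pattern lay in the dip at 8 psu. On centred log2(CPM + 0.5) values over the 3 libraries, the closest pair was egln3 and epoa, at a Euclidean distance of 0.34, followed by gadd45ga and epoa at 0.49 and by ddit4 and egln3 at 0.60. Zmat3 was the farthest from the rest, with distances of 1.15 to egln3 and 1.76 to gadd45ga, the widest of the 10 pairs. Of the 5, ddit4 had the largest difference between 0 and 8 psu and zmat3 the largest between 8 and 16 psu. For zmat3 and epoa the low counts leave these distances with a wide counting error.

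Close relatives of the 5 genes were sought by symbol, which many identifiers of the count table lack. None of those found was called higher between 8 and 16 psu. Egln1a, the fish counterpart of the main mammalian HIF hydroxylase, had 278, 303 and 318 counts at 0, 8 and 16 psu, and its log2 fold change between 8 and 16 psu was -0.19 (-0.43 to 0.04). Egln2 had 667, 622 and 870 counts and a log2 fold change of 0.22 (0.07 to 0.37) in that set. Among the EGLN genes found by symbol and with a count in these libraries, egln3 was therefore the only one that passed the criteria in any set.

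In the GADD45 family, gadd45aa had 136, 192 and 162 counts at 0, 8 and 16 psu, highest at 8 psu, where gadd45ga was lowest. Its log2 fold change was 0.45 (0.15 to 0.80) between 0 and 8 psu and -0.49 (-0.82 to -0.20) between 8 and 16 psu, under the fold limit in both. Gadd45ab had 26, 24 and 37 counts, with a log2 fold change of 0.29 (-0.42 to 1.17) between 8 and 16 psu. Gadd45gb.1, the nearest namesake of gadd45ga, had 1, 0 and 2 counts and was under the count minimum. GADD45B, which the study named beside GADD45G in its p53 pathway, was not found under that symbol, so its level is not described.

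The ZMAT genes share the zinc finger type of zmat3 but are not known as p53 targets. Zmat2, a splicing factor, had 292, 307 and 372 counts at 0, 8 and 16 psu, and its log2 fold changes were between 0.01 and 0.06 in the 3 sets. Zmat1 had 22, 32 and 38 counts, and zmat4a had 1 count in all, in the 8 psu library. Zmat5 had 15, 40 and 31 counts, and its log2 fold change of 1.08 (0.50 to 2.35) between 0 and 8 psu passed the criteria. That of zmat3 in this set was -0.42, with an interval (-1.80 to 0.52) that held 0. The receptor of erythropoietin, epor, had 101, 103 and 94 counts, with a log2 fold change of -0.37 (-0.81 to 0.02) between 8 and 16 psu, beside 1.30 for its ligand.

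How the reads of close relatives were shared out and whether strand was used in counting are not given in the sources used here. In the RefSeq annotation of another assembly (O_niloticus_UMD_NMBU), ddit4 overlapped 1 gene, dnajb12b, which had 1, 1 and 4 counts. Zmat3 overlapped LOC100706342, which had 58, 43 and 69 counts and a log2 fold change of 0.37 between 8 and 16 psu. Without strand, reads of zmat3 and that gene cannot be told apart in the stretch they share. No gene of that annotation overlapped gadd45ga, egln3 or epoa. The table's neighbours that do not overlap had their own values, with log2 fold changes between 8 and 16 psu of -0.07 for anapc16 next to ddit4, 0.38 for pik3ca next to zmat3 and 0.17 for pop7 next to epoa.

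The HIF pathway around egln3 and epoa was then described by a list of oxygen sensors and HIF subunits. Counts of called genes on this and the later lists are to be read beside the shares of all genes given above. None of the 8 other genes tested on this list was past the criteria in any set, and their median log2 fold change was 0.07 between 0 and 8 psu, 0.05 between 0 and 16 psu and 0.09 between 8 and 16 psu. Hif1aa, which encodes an oxygen-regulated HIF subunit controlled mainly at the protein level, had 1086, 739 and 998 counts in the 3 libraries, and its log2 fold change between 8 and 16 psu was 0.17. Epas1, the gene of a second such subunit, had 636, 732 and 785 counts and a log2 fold change of -0.16 in that set. Vhl, the von Hippel-Lindau gene, had 31, 52 and 58 counts and a log2 fold change of -0.09.

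Among 22 hypoxia-responsive genes other than the 5, chosen from mammalian and fish biology, 1 was called higher and 1 lower between 8 and 16 psu, and 1 was called higher and 2 lower between 0 and 16 psu. The median log2 fold change was -0.03 and 0.20 in these sets, and with a minimum of 100 counts 0.03 and 0.47. The higher one in both was igfbp1a, whose product binds insulin-like growth factors and is made by the fasting or hypoxic liver. It had 22, 10 and 382 counts at 0, 8 and 16 psu, a log2 fold change of 4.26 (4.10 to 6.06) between 8 and 16 psu and of 3.47 (3.21 to 4.52) between 0 and 16 psu. Between 0 and 8 psu 1 of the 22 was called higher and 2 lower, and the median was 0.35 (0.37 with a minimum of 100 counts). Hmox1a, the haem oxygenase gene, was the higher one (58 and 128 counts, log2 fold change 1.03) and had 97 counts at 16 psu. The lower ones were admb (log2 fold change -1.31) and pfkfb4a (-1.34).

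The gene called lower between 8 and 16 psu was pfkfb3, with 10, 20 and 7 counts at 0, 8 and 16 psu, and those called lower between 0 and 16 psu were admb, with 15, 2 and 0 counts, and pfkfb4a, with 80, 28 and 38. Other known HIF targets on the list, picked here after their values were seen, had other orders than egln3. Eno1a, an enolase gene, had a log2 fold change of 0.97 between 0 and 8 psu and of -0.32 between 8 and 16 psu. Between 0 and 16 psu it was 0.64. Ndrg1a, a hypoxia marker in several vertebrates, was at 155, 120 and 77.5 CPM in the 3 libraries, in order of salinity. Bhlhe40, a repressor induced by HIF in mammals, had 189, 367 and 451 counts at 0, 8 and 16 psu. Its log2 fold change was 0.03 between 8 and 16 psu and 0.94 (0.72 to 1.22) between 0 and 16 psu. Of the 22 genes tested on the list, 13 had a log2 fold change above 0 between 0 and 16 psu, and 8 between 8 and 16 psu. The list had 26 symbols, of which 18 were matched to the count table. Ldha, which the study placed in its HIF-1 pathway, is not among the 22 and is counted below with the study's own genes. Its log2 fold change was -1.23 between 0 and 8 psu and 2.44 between 8 and 16 psu, and both passed the criteria.

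In the p53 pathway, 21 regulators and targets other than the 5 were tested. Between 8 and 16 psu 1 of them was called higher and none lower, tigara with 10, 1 and 11 counts at 0, 8 and 16 psu, and none was called between 0 and 16 psu. Between 0 and 8 psu 1 was called higher and 2 lower. The median log2 fold change was 0.11 between 8 and 16 psu and 0.19 between 0 and 16 psu. It was 0.00 between 0 and 8 psu. With a minimum of 100 counts the medians were 0.02, 0.26 and 0.23 in the same order. Mdm2, which encodes the ligase that removes p53 and is itself a p53 target, had 143, 146 and 233 counts at 0, 8 and 16 psu and a log2 fold change of 0.39 (0.11 to 0.72) between 8 and 16 psu.

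Tigara and cdkn1a were those called lower between 0 and 8 psu. Cdkn1a, which encodes p21, had 174, 77 and 119 counts at 0, 8 and 16 psu, and its log2 fold change between 0 and 8 psu was -1.13 (-1.61 to -0.81). Its log2 fold change between 8 and 16 psu was 0.34 (-0.06 to 0.80).

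The partners of GADD45 proteins and the stress kinases downstream of them numbered 19 without gadd45ga. None was called between 8 and 16 psu or between 0 and 16 psu, and between 0 and 8 psu mapk8b, with 42 and 98 counts, was called higher and cdk1, with 61 and 24 counts, lower. The median log2 fold change was -0.04 both between 8 and 16 psu and between 0 and 16 psu, and the latter was 0.11 with total counts as scaling. With a minimum of 100 counts the medians were -0.28 and -0.44. For the TORC1 pathway that the ddit4 product inhibits, 1 of 15 other genes was called higher between 8 and 16 psu, rheb with 18, 4 and 21 counts at 0, 8 and 16 psu. Rheb was also called lower between 0 and 8 psu (log2 fold change -1.20), and its log2 fold change between 0 and 16 psu was -0.05. No other gene of that list was called in any set. The list median was -0.05 between 8 and 16 psu, -0.00 between 0 and 8 psu and -0.02 between 0 and 16 psu.

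Other pathways known in mammals to induce ddit4 were represented by lists of glucocorticoid response and integrated stress response genes. A list of immediate-early genes was set beside them. Of 13 glucocorticoid response genes, 3 were called higher and none lower between 8 and 16 psu. Between 0 and 8 psu 1 was called higher and 5 lower, and between 0 and 16 psu 1 higher and 4 lower. These counts are to be read beside the shares of all genes given above. The list's median log2 fold change was 0.03 between 8 and 16 psu and -0.76 between 0 and 8 psu. It was -0.15 between 0 and 16 psu. With a minimum of 100 counts the median between 8 and 16 psu was 0.31. Fkbp5, which encodes a cochaperone of the glucocorticoid receptor, had 1097, 162 and 994 counts at 0, 8 and 16 psu. Sgk1, a kinase gene induced by glucocorticoids and osmotic stress, had 2158, 1081 and 3697 counts. Both were lowest at 8 psu, but fkbp5 was highest at 0 psu and sgk1 at 16 psu. Whether any of these pathways acted on ddit4 was not tested.

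The log2 fold change of fkbp5 was -2.73 (-3.03 to -2.55) between 0 and 8 psu and 2.30 (2.11 to 2.60) between 8 and 16 psu, and both passed the criteria. That of sgk1 was -1.02 (-1.13 to -0.92) and 1.5 (1.41 to 1.61), and both passed as well. Pck1, the gene of the gluconeogenic enzyme PEPCK, was the third gene called higher between 8 and 16 psu, with 18, 8 and 280 counts and a log2 fold change of 4.00 (3.87 to 6.09). Klf9 was, like fkbp5, highest at 0 psu and lowest at 8 psu, with 493, 154 and 237 counts, and was called lower at 8 and at 16 psu than at 0 psu. Other orders were those of mt2, a metallothionein gene, which fell from 5965 counts in freshwater to 621 and 441, and of tsc22d3, with 3766, 7686 and 8169 counts.

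None of 18 integrated stress response genes was called between 8 and 16 psu, and their median log2 fold change was 0.19. Between 0 and 8 psu the median was -0.27 (-0.46 with a minimum of 100 counts), and 1 gene was called higher and none lower. Between 0 and 16 psu it was -0.13, with none called. Of 15 immediate-early genes, 1 was called lower between 8 and 16 psu, klf4 with 26, 15 and 4 counts at 0, 8 and 16 psu, and the list median was 0.02, turning to -0.00 with upper quartile scaling. Between 0 and 16 psu 1 of them was called higher (egr1 with 117, 318 and 405 counts at 0, 8 and 16 psu) and 3 lower, among them jun with 203, 84 and 76 counts and myca with 212, 77 and 124. The median of these 15 genes was -0.60 in that set and -0.61 between 0 and 8 psu, where 1 was called higher and 3 lower. With a minimum of 100 counts the medians were -0.33 and -0.49 in the same order. None of the 6 genes tested on an osmotic stress list was called in any set, and none of 12 erythropoietin signalling genes. Their medians between 8 and 16 psu were -0.19 and -0.13. Only 6 of the 12 symbols on the osmotic list were matched, and slc5a3b, with 1, 1 and 6 counts, was under the count minimum. Loci were matched by symbol alone, and whether the one named ostf1 is an osmotic stress gene was not checked.

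**Figure D3:**
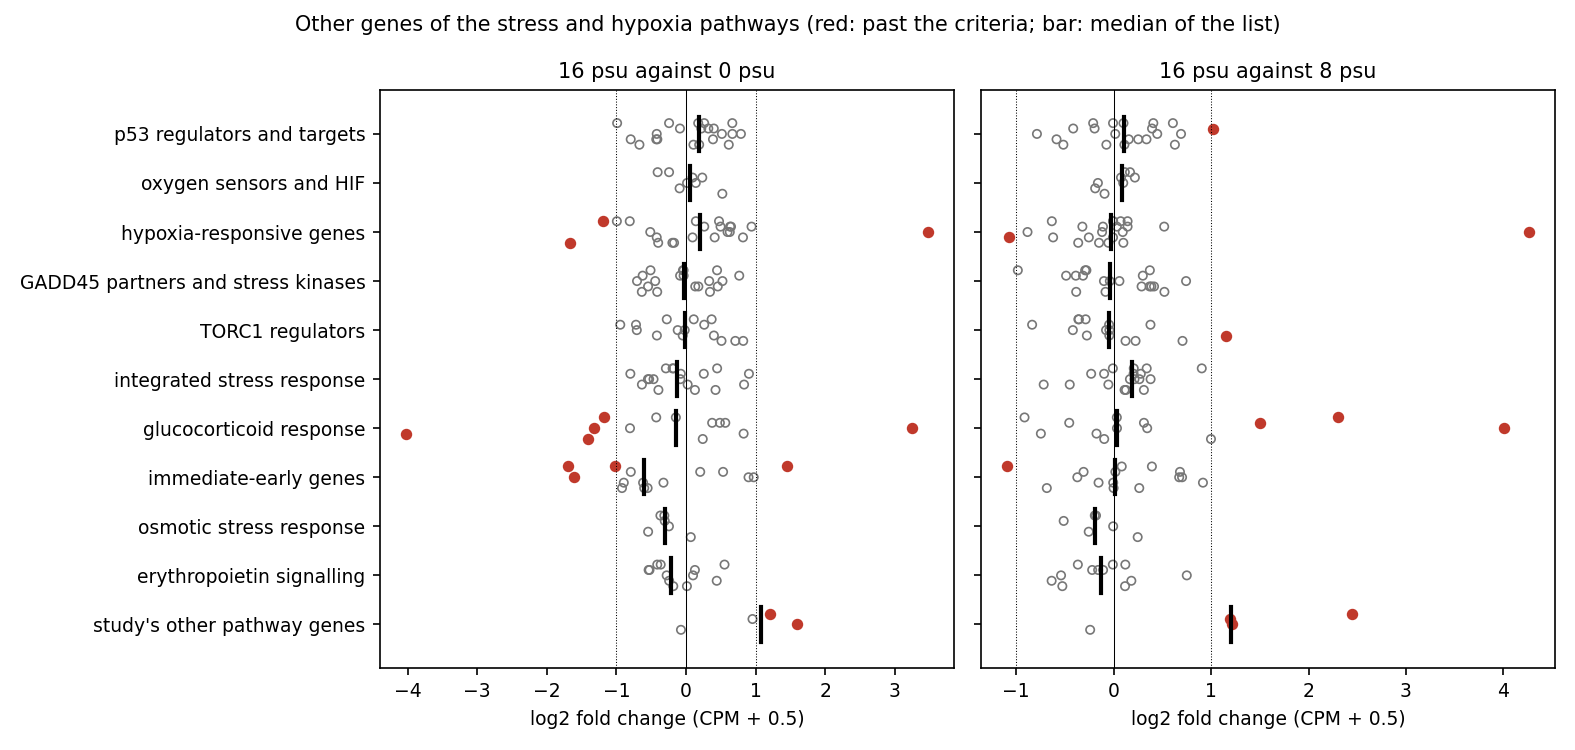
Log2 fold change on CPM + 0.5 of each gene tested on the lists (rows), without the 5 genes, between 0 and 16 psu (left) and between 8 and 16 psu (right). Each circle is 1 gene, filled red where it passed the criteria, vertical bars are list medians, and dotted lines mark a 2-fold change. Apart from the genes the study itself chose, the medians lie between -0.19 and 0.19 between 8 and 16 psu, and the rightmost red point is igfbp1a in both panels, at 3.47 and 4.26, followed by pck1.

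Over all lists together, 9 of 153 genes tested were called higher and 2 lower between 8 and 16 psu, and 5 were called higher and 9 lower between 0 and 16 psu. Between 0 and 8 psu the counts were 6 and 15. As shares of the 153 genes, 5.88% were called higher and 1.31% lower between 8 and 16 psu, 3.27% and 5.88% between 0 and 16 psu, and 3.92% and 9.80% between 0 and 8 psu, to be read beside the shares of all genes given above. These counts include 4 further genes of these pathways that the study named and that could be tested (igfbp3, igf1ra, igf1rb and ldha). They were chosen on these libraries, are not independent evidence of a direction, and raise the share of 5.88% called higher between 8 and 16 psu. Of these, 3 were called higher between 8 and 16 psu, with a list median of 1.21, and the fourth, igf1ra, had 15, 18 and 17 counts. Pck1, also called higher in that set, was likewise in the study's stable-then-change class, although it is counted here on the glucocorticoid list. Ldha, which encodes the lactate dehydrogenase subunit that forms lactate from pyruvate, had 134, 54 and 390 counts at 0, 8 and 16 psu.

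The genes nearest to each of the 5 in pattern were taken from 6299 genes with a symbol and at least 100 counts in 1 library, by the same distance over 3 libraries. With only 3 libraries, many genes lie close by count alone, and nothing is said of shared function or control. Of the 8291 genes with 100 counts, 126 had log2 fold changes inside the counting intervals of epoa over both steps of salinity, 23 inside those of zmat3, 8 inside those of gadd45ga, and 4 each inside those of ddit4 and egln3.

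Nearest to ddit4 were tor3a, a torsin family gene (distance 0.12), ldha (0.12), ncoa7a (0.13), insig1, whose product holds the sterol sensor complex in the endoplasmic reticulum (0.32), and dnhd1 (0.33). Tor3a had 116, 45 and 325 counts at 0, 8 and 16 psu, and insig1 had 2268, 1205 and 5132. Like ddit4, all were lowest at 8 psu and highest at 16 psu.

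The gene nearest to zmat3 was hp, the gene of haptoglobin, the plasma protein that binds free haemoglobin, at 0.30 with 2254, 1621 and 14909 counts. Then came a granzyme gene (0.50), pck1 (0.54), the chaperone gene calr (0.60) and the matrix metalloproteinase gene mmp9 (0.61). Among those nearest to gadd45ga were errfi1b, an inhibitor of epidermal growth factor receptor signalling (0.07), the glycogen synthase gene gys1 (0.08), npr1a (0.09) and si:dkey-261l7.2 (0.09). Errfi1b had 567, 389 and 1118 counts.

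Nearest to egln3 were the disulphide isomerase gene pdia4 (0.09), c2cd2l (0.12), the disulphide isomerase gene pdia6 (0.12), the pyrimidine synthesis gene dhodh (0.21) and the chaperone gene hyou1 (0.24). Pdia4 had 1165, 1042 and 3970 counts at 0, 8 and 16 psu, and pdia6 had 470, 441 and 1686. Nearest to epoa were slc35a5 (0.04), the calreticulin gene calr3b (0.06) with 1706, 1779 and 5373 counts, cadm1a (0.07), the MYC relative mych (0.09) and znf395a (0.10).

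Markers of other cell types were set beside the 5 genes, since hepatopancreas holds several cell types and, in bulk RNA, fewer cells of a type and less RNA per cell cannot be told apart. The summed level of skeletal muscle markers had the same order as ddit4, zmat3, gadd45ga and egln3. Over 10 loci they summed to 16.3, 5.08 and 106.0 CPM in the 0, 8 and 16 psu libraries. Of the 10, 8 were called higher and none lower between 8 and 16 psu, beside 3.54% and 2.14% of all genes tested. Between 0 and 16 psu 8 were called higher and 1 lower, beside 5.79% and 5.27% of all genes. Between 0 and 8 psu none was called higher and 5 were called lower, beside 4.42% and 5.41% of all genes. Single markers departed from the order of the sum, atp2a1 with 13, 3 and 3 counts at 0, 8 and 16 psu and ryr1b with 0, 1 and 16. The strongest, acta1b, had 62, 17 and 724 counts at 0, 8 and 16 psu. The part of muscle RNA in the levels of the 5 genes was not tested.

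Red cell markers, which bear on epoa, summed over 5 loci to 178, 202 and 169 CPM in the 0, 8 and 16 psu libraries, and none was called in any set. Kidney tubule markers summed to 15.7, 8.09 and 8.89 CPM, and so were not highest at 16 psu. Of the 6 cardiac muscle loci 4 were at 0 in all libraries, including nppa and nppb, and the sum stayed under 0.81 CPM. Enterocyte markers summed to 1285 CPM at 0 psu and to 205 and 178 CPM at 8 and 16 psu, an order that none of the 5 genes had. Most of each sum came from 1 locus, apoa4b, at 1248, 191 and 171 CPM. Of the 9 hepatocyte markers, fabp10a was lower at 8 and 16 psu (13085, 5368 and 4513 CPM, called lower in both sets with 0 psu) and CP higher at 16 psu (1299, 2359 and 4579 CPM, called higher between 0 and 16 psu), and no other was called in any set. The largest part of each hepatocyte sum came from 1 locus, hpxa, at 39037.2, 49137.8 and 43086.5 CPM.

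**Figure D4:**
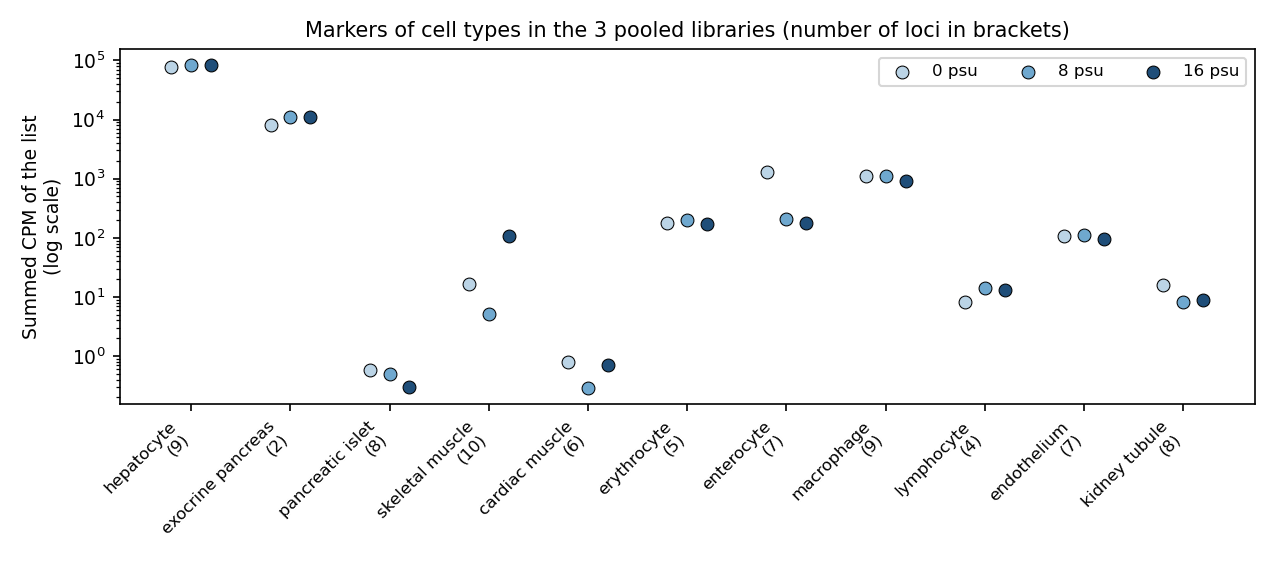
Summed level of the markers of each cell type in CPM (vertical axis, log scale) in the 3 pooled libraries, 1 point per library, with the number of loci in brackets. Skeletal muscle is the list that is lowest at 8 psu and far highest at 16 psu (5.08 and 106.0 CPM), while the sum of hepatocyte markers stays between 76958 and 82341 CPM. The largest part of that sum is hpxa, and within it fabp10a and CP differed in opposite directions.

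The calls on the 5 genes depended on how much variation between libraries was allowed for. When the edgeR exact test was given a biological coefficient of variation of 0.2 (assumed, not measured), ddit4, zmat3 and egln3 were still called higher between 8 and 16 psu, and zmat3 and egln3 between 0 and 16 psu. With 0.4, zmat3 was the only one called between 8 and 16 psu, none was called between 0 and 16 psu, and with either value the call on ddit4 between 0 and 8 psu was lost. The true variation between such pools was not measured.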

How the data were processed

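Single-end Ion Proton libraries were made from poly(A) RNA, 1 per salinity, each from a pool of 8 fish. After filtering, the authors mapped the reads to Orenil1.1 with MapSplice. The 1 table they deposited holds raw counts per gene and library, not normalized. The submitters' processing notes name HTSeq, with no version, and how strand and reads that match several genes were treated is not given in the sources used here. The reads were not analysed here.

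The 5 genes, the gene lists and the tests were chosen with earlier results of these data known. A gene was tested if it reached 10 counts in any library (16573 of 29605). TMM factors from edgeR 4.0.16 (R 4.3.3) scaled the library sizes. Python 3.11.15 with pandas 2.3.3, scipy 1.17.1 and numpy 2.4.6 gave the other values, and matplotlib 3.10.9 the plots. Total counts per library were 14627514, 13628578 and 16112951 at 0, 8 and 16 psu. Intervals and limits for a count of 0 treat reads as independent, although PCR duplicates were not marked. The method was tested on simulated counts with 200 changed genes per set. The simulated libraries varied by counting error only, so that test cannot tell how the calls hold under variation between pools. With 1 library per salinity, neither a quasi-likelihood fit nor a DESeq2 test could be run, and EB-Seq, the authors' tool, was not installed. The p-values therefore come from an exact binomial test on the reads of 2 libraries, with a fold limit of 2.

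Gene symbols came from RefSeq (assembly O_niloticus_UMD_NMBU), which gave 15687 of the 29605 identifiers a symbol. That assembly differs from the one the counts use, so no coordinates are given. A table entry named fas was left out, because RefSeq gives that symbol to another locus. Named are the 5 genes, their family members with a count, mdm2, hif1a, epas1, vhl and epor whatever their values, list genes past the criteria with at least 100 counts in 1 library (at most 6 per list, those with the most counts), and the 5 genes nearest in pattern to each. Some genes that this rule would name are not reported here. Other genes named (tigara, pfkfb3, pfkfb4a, admb, eno1a, ndrg1a, bhlhe40, mapk8b, cdk1, rheb, klf4, ostf1, slc5a3b and the members of the study's own list and of the marker lists) were picked after their values were seen.

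As alternatives, libraries were scaled by total counts, by the upper quartile or by size factors from DESeq2 1.42.0, the count minimum was dropped or set to 100, the fold limit was set to 1.5 and the pseudocount to 0.1 or 1, and edgeR's exact test was run with the coefficient of biological variation assumed to be 0.2 or 0.4.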

Additional observations from a re-analysis of the deposited data

How the results depend on the processing

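The log2 fold changes of the 5 genes kept their sign under all scalings and pseudocounts tried, except that of epoa between 0 and 8 psu, which was -0.02 and became 0.02 with the upper quartile and 0.08 with total counts. Of 75 recomputed values 71 stayed inside the counting interval of the fold change. The other 4 were ddit4 (1.29) and gadd45ga (0.77) between 0 and 16 psu with total counts as scaling, and zmat3 with a pseudocount of 1 (2.54 between 0 and 16 psu and 2.85 between 8 and 16 psu). The number of genes past the criteria was 1630 between 0 and 8 psu, 1834 between 0 and 16 psu and 941 between 8 and 16 psu. In the same order of sets it was 588, 728 and 284 with a minimum of 100 counts, 3664, 4125 and 2161 with a fold limit of 1.5, 478, 818 and 257 with an assumed coefficient of variation of 0.2, and 38, 96 and 55 with one of 0.4. The fold limit of 1.5 added gadd45ga between 0 and 16 psu, and so called all 5 genes there.

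With total counts as scaling, which moved the median of all genes by 0.12 between 0 and 8 psu and 0.14 between 0 and 16 psu, the calls between 0 and 8 psu were 992 higher and 704 lower in place of 733 and 897, and between 0 and 16 psu 1244 and 666 in place of 960 and 874. The list medians near 0 changed sign with the scaling or the count minimum: the TORC1 list between 0 and 8 psu and between 0 and 16 psu (0.13 in each with total counts), the GADD45 partners between 0 and 8 psu (0.24 with a minimum of 100 counts), the integrated stress response between 0 and 16 psu (0.02 with total counts) and the study's own genes between 0 and 8 psu (0.05 with total counts). The cause was not tested.

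No paired analysis was possible because each salinity has 1 library, and leaving out a library was not run, since it would leave a salinity without one. Depth limited zmat3 (12 counts at 8 psu) and epoa (31 counts at 0 and at 8 psu) the most.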
